A study of Mus musculus with 12 samples.

Results

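The genes described here are 44 genes of S phase and DNA replication, chosen by gene symbol from the 56350 genes of the deposited count table. They were followed across 4 treatment groups of 3 mice each. Every mouse carried the activating Shp2 E76K allele of Ptpn11 on 1 chromosome (Shp2E76K/+) together with LysM-Cre, on a C57BL/6 background, and was 12 to 14 weeks old. The combination group received PD-901 and 5-azacitidine, and the other groups received PD-901 alone, 5-azacitidine alone or vehicle. PD-901 (PD0325901) is an inhibitor of MEK1 and MEK2, given by oral gavage at 5 mg/kg in 20 doses over 4 weeks. 5-Azacitidine is a cytidine analogue that is built into RNA and DNA and blocks DNA methyltransferases. It was injected into the peritoneum at 5 mg/kg in 5 doses over 4 weeks. Total RNA from bone marrow cells of each mouse was sequenced. The model stands for juvenile myelomonocytic leukaemia, a childhood disease often caused by such Ptpn11 mutations. LysM-Cre is driven from the Lyz2 locus and is active in myeloid cells, so bone marrow RNA mixes cells with and without recombination. All 4 groups share the mutant genotype and the Cre, so no comparison here is against wild type mice.

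DNA replication starts in G1, when the origin recognition complex, CDC6 and CDT1 load the MCM2-7 helicase onto DNA. Cyclin E with CDK2 and the DBF4-dependent kinase then bring in CDC45 and GINS, the helicase unwinds, RPA coats the single strands, and primase with polymerase alpha starts each new strand. Replication factor C (RFC) loads the PCNA clamp, polymerases epsilon and delta extend the leading and lagging strands, and ribonucleotide reductase and thymidylate synthase supply the nucleotides. Most of these genes are targets of the E2F transcription factors, which the retinoblastoma protein restrains until late G1. In bone marrow they are used mostly by dividing progenitors of the red cell, granulocyte and B cell lines.

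Libraries held 15356919 to 27148190 counts, and the 44 genes together took 0.478% to 0.937% of them. All 44 passed the filter on low counts, with 17475 genes tested in all. CPM below is edgeR's measure of a gene's counts relative to its library's total, after that total was multiplied by a TMM factor (0.929 to 1.07). Markers of erythroid cells (1960 to 9920 CPM summed over 17 genes) and of mature neutrophils (10800 to 36300 CPM summed over 12 genes) were present in every library, as the bone marrow label requires. In bulk RNA, fewer cells of a type and less RNA per cell cannot be told apart. Lyz2, the Cre locus, set 4 libraries apart. Combination replicates 1 and 2 held 44.9 and 55.9 CPM and vehicle replicates 1 and 2 held 172 and 147 CPM, against 700 to 4180 CPM in the other 8. Xist was above 100 CPM in 0 of 3 combination, 2 of 3 PD-901, 1 of 3 5-azacitidine and 3 of 3 vehicle libraries. Sex and treatment therefore cannot be told apart between the combination and vehicle libraries alone.

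The summed level of the 44 genes was 8778, 7029 and 8809 CPM in the combination libraries, 6131, 6459 and 6010 CPM with PD-901, 6524, 6390 and 7014 CPM with 5-azacitidine, and 5000, 5699 and 4910 CPM with vehicle. Every combination library was above every other library, and every single-agent library was above every vehicle library. The mean sum was 1.58 times vehicle in the combination group, 1.19 times vehicle with PD-901 and 1.28 times vehicle with 5-azacitidine. Within the combination group replicate 2 was the lowest, both in the sum and in 41 of the 44 genes taken one by one. Vehicle replicate 2 was the highest vehicle library in 38 of the 44. These counts have no share over all tested genes beside them, and genes of 1 library are not independent of one another.

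**Figure D1:**
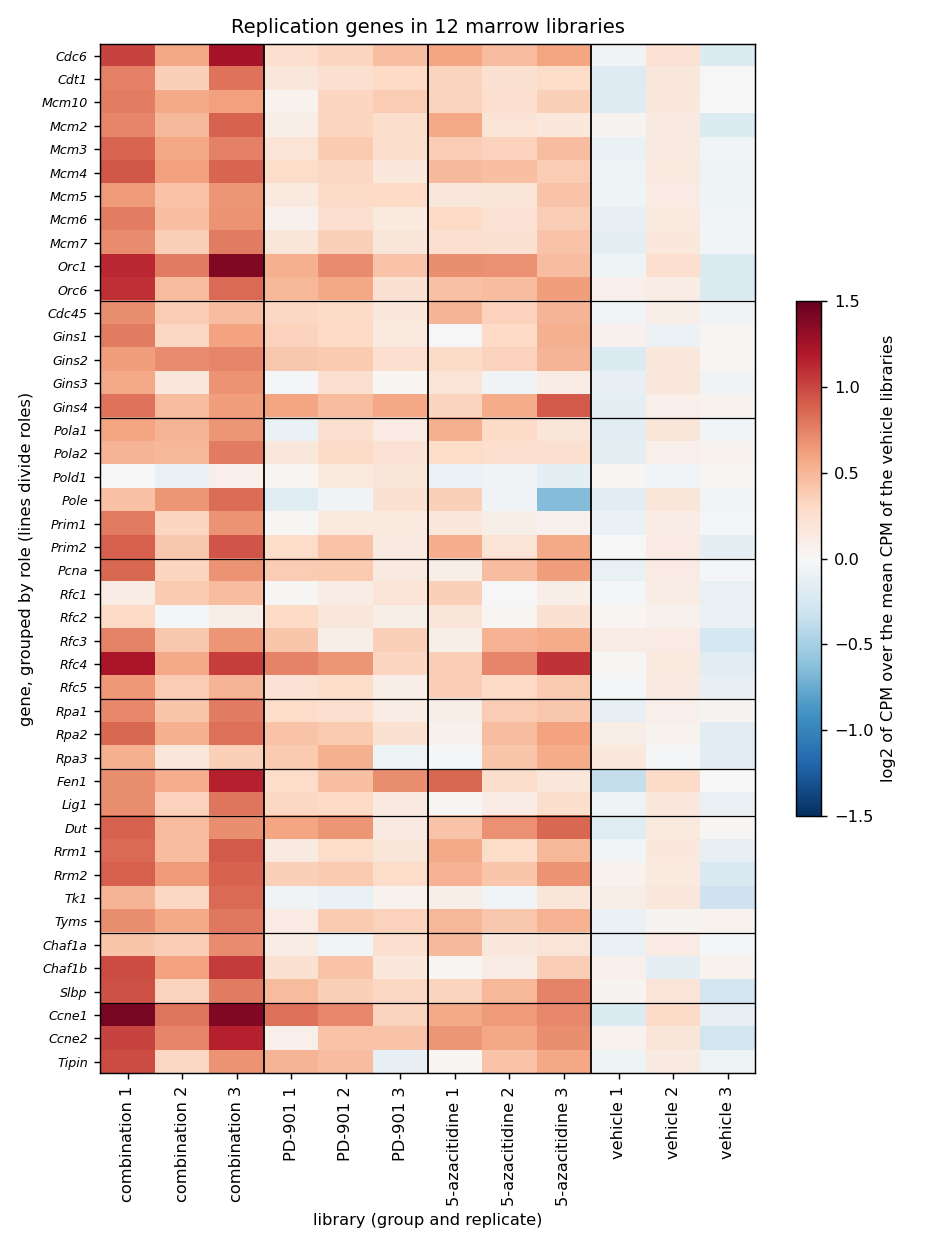
Level of each of the 44 genes (rows, grouped by role) in each of the 12 libraries (columns, by treatment), as log2 CPM minus the mean of the 3 vehicle libraries. Most rows are highest in the combination columns and lowest in the vehicle columns, and Pold1 and Rfc2 show little change.

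Against vehicle, 39 of the 44 genes were higher in the combination group and 0 were lower (edgeR's quasi-likelihood test, Benjamini-Hochberg adjusted p under 0.05 over all tested genes). Over all tested genes 5.78% were called higher and 7.97% lower in that comparison. The median log2 change was 0.66 for the 44 genes and 0.01 for all genes tested, and the 44 changes ran from -0.01 to 1.23. In 41 of the 44 all 3 combination libraries lay above all 3 vehicle libraries, a pattern that 16.1% of all tested genes had. With 1 library left out at a time the count ran from 23 to 39, and it was 23 without combination replicate 1 and 23 without vehicle replicate 1. Those counts have no share over all tested genes beside them, so they cannot be set against all genes. Of the called genes the least stable were Fen1 (called in 3 of these 12 fits), Pole (4), Gins1, Rfc3 and Tipin (7 each), and Chaf1a and Tk1 (8 each). Leaving out the 4 libraries lowest in Lyz2 leaves replicate 3 of the combination against replicate 3 of vehicle, 1 library each, with the spread taken from the single-agent groups and assumed to hold for these 2. That fit called 14 of the 44 and 1.84% of all tested genes higher, with a median log2 change of 0.78 for the 44, and has no replicate check of its own.

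Cell type markers moved in the same comparison. Of the 17 erythroid genes tested 16 rose, with a median log2 change of 1.39, and their sum was 8180, 3300 and 9920 CPM in the combination libraries against 2710, 3160 and 1960 CPM with vehicle. Combination replicate 2, the lowest combination library in replication genes, was also the lowest in erythroid genes. Of the 12 mature neutrophil genes 8 fell, with sums of 10800, 14300 and 12600 CPM in combination libraries and 32300, 25700 and 16500 CPM in vehicle libraries. With the erythroid sum as a covariate the replication genes had a median log2 change of 0.37 and 0 of 44 were called, and over all genes 1 was called higher. With the mature neutrophil sum as a covariate the median was 0.67 and 1 of 44 was called, where 0.0229% of all tested genes were called higher. With a term for Xist above 100 CPM the median was 0.64 and 0 of 44 were called, as were 0 of all tested genes. Between combination and vehicle libraries neither sum overlapped, nor did Xist, and hardly any gene of any kind kept a call. These fits therefore cannot decide the part of the markers or of Xist in the result, which was not otherwise tested.

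**Figure D2:**
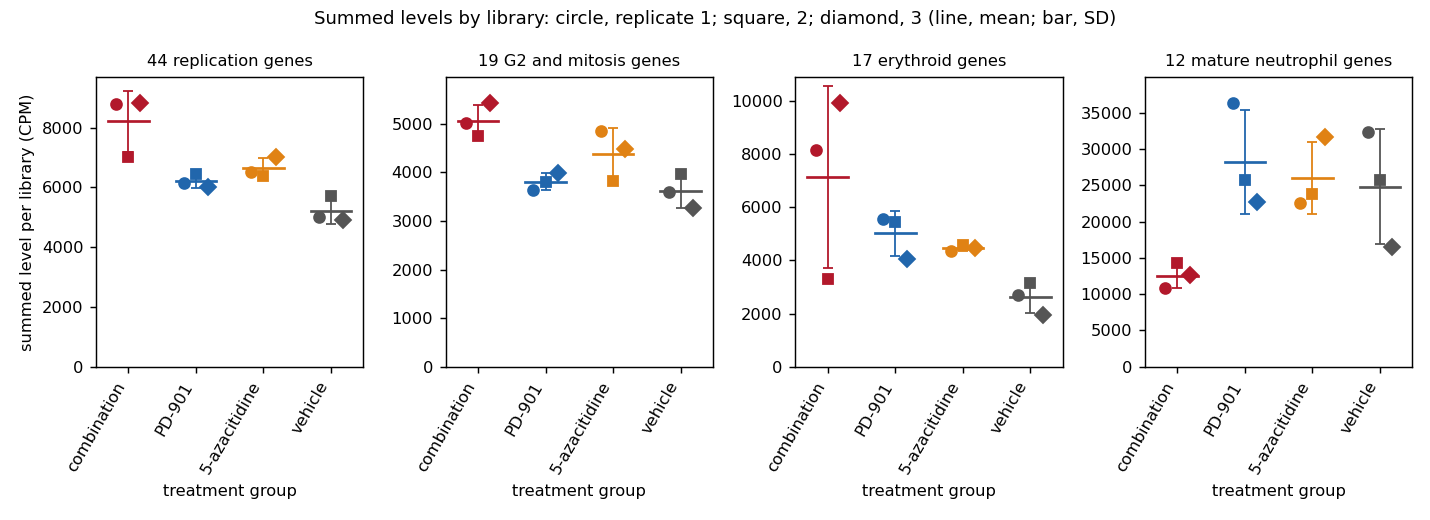
Summed level in CPM of the 44 replication genes, 19 G2 and mitosis genes, 17 erythroid genes and 12 mature neutrophil genes in each library, by treatment group (circle, square and diamond are replicates 1, 2 and 3, the line is the mean and the bar the SD). All combination libraries are the highest in the 44 genes and the lowest in the mature neutrophil sum, while combination replicate 2, at 3300 CPM, lies just above the vehicle libraries in the erythroid sum.

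**Figure D3:**
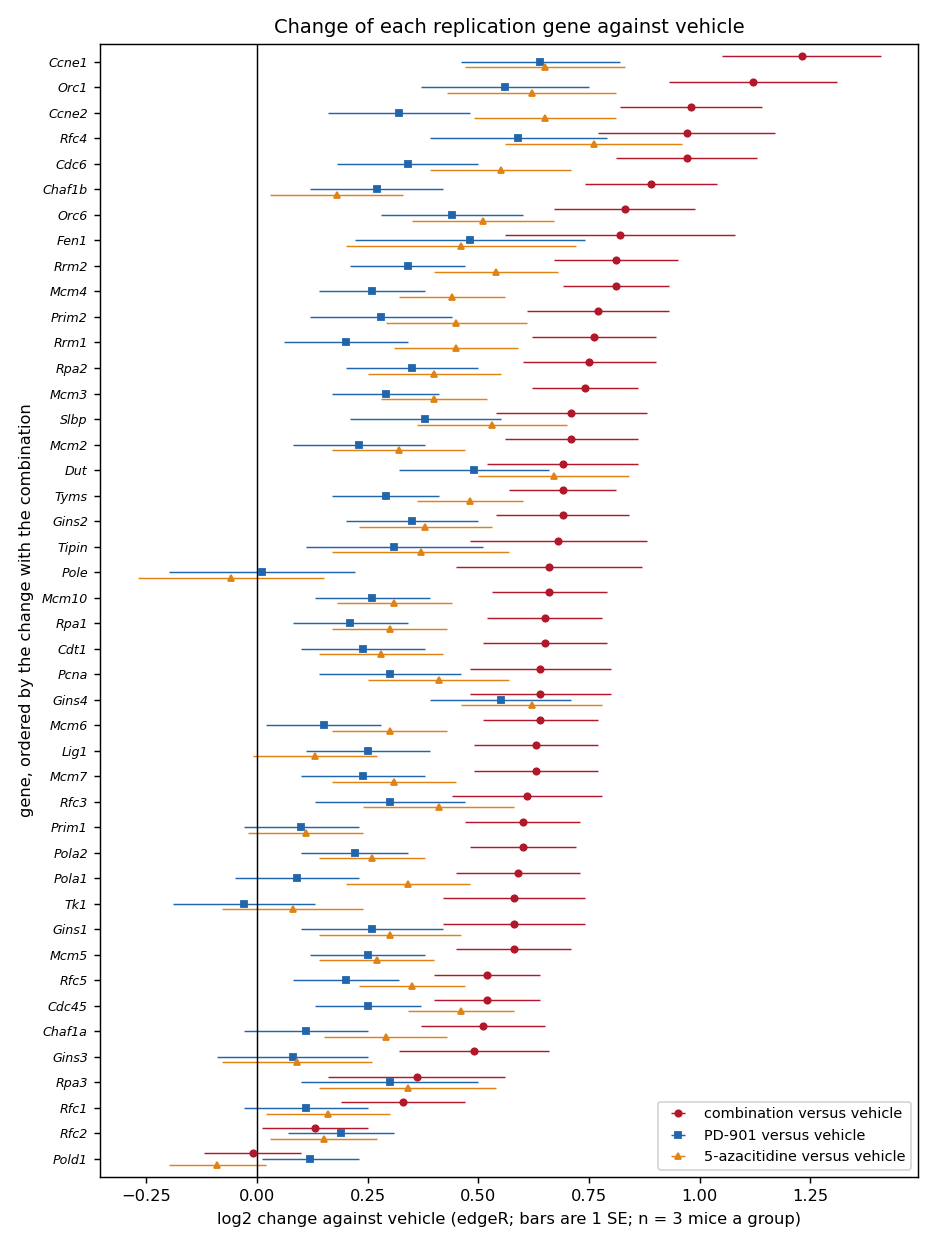
Log2 change of each of the 44 genes against vehicle in the combination, PD-901 and 5-azacitidine groups, with genes ordered by the change in the combination group and bars of 1 SE from edgeR's quasi-likelihood fit. The combination points lie to the right of the single-agent points for most genes, from -0.01 for Pold1 to 1.23 for Ccne1.

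The licensing genes, which form the helicase or load it in G1 and are listed here with the later-acting Mcm10, were all called. In this class 11 of 11 were higher in the combination group than with vehicle, with a median log2 change of 0.71 and a range of 0.58 to 1.12. Mcm4, a helicase subunit (chr16:15623897-15637400, mm10), was at 362, 289 and 347 CPM in combination libraries, 230, 235 and 212 CPM with PD-901, 265, 259 and 247 CPM with 5-azacitidine, and 179, 209 and 180 CPM with vehicle. The 4 groups did not overlap and ran in the order combination, 5-azacitidine, PD-901, vehicle. Against vehicle Mcm4 was 1.76-fold higher in the combination group (log2 0.81, SE 0.12, edgeR adjusted p = 0.00296). Cdc6, which recruits MCM2-7 to the origin, was at 170, 126 and 200 CPM in combination libraries, 100, 105 and 115 CPM with PD-901, 127, 116 and 127 CPM with 5-azacitidine, and 81.5, 98.2 and 73.1 CPM with vehicle. Combination replicate 2 lay within the 5-azacitidine range, while all 9 treated libraries were above all vehicle libraries. Its change in the combination group was 1.96-fold (log2 0.97, SE 0.16, edgeR adjusted p = 0.0033).

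Orc1, the subunit of the origin recognition complex that is made anew each cycle, had the largest change of the licensing genes at 2.17-fold (log2 1.12, 95% interval 0.72 to 1.52, edgeR adjusted p = 0.0033). Its levels were low, 28.1 to 43 CPM in combination libraries and 14.1 to 19.5 CPM with vehicle. Orc6, the small ORC subunit, averaged 80.5 ± 16.8 CPM in the combination group and 45.4 ± 5.53 CPM with vehicle (SD, n = 3 each). Cdt1, the partner of CDC6 in loading, averaged 222 ± 36 CPM and 141 ± 17.5 CPM in the same groups, and Mcm10, which acts as the helicase fires, 110 ± 8.05 CPM and 70 ± 8.37 CPM (SD, n = 3 each). The other MCM2-7 genes rose by log2 0.58 (Mcm5) to 0.74 (Mcm3). Mcm6 was at 567, 457 and 534 CPM in combination libraries, 351, 395 and 369 CPM with PD-901, 412, 389 and 432 CPM with 5-azacitidine, and 306, 371 and 326 CPM with vehicle. Its combination libraries were above all others, while PD-901 overlapped vehicle. Mcm7 shares 23.3% of its 50-base stretches with other genes, among them Gm5487 and Ap4m1.

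MCM2-7 is a ring with 1 copy of each subunit, and its messages were compared per length. In CPM per kilobase of merged exons, Mcm3, Mcm5, Mcm6 and Mcm7 lay between 110 and 113 in the combination group and between 66.2 and 75.7 with vehicle. Mcm2 was the lowest subunit per kilobase at 55.5 and 33.8. That rank depends on the length used, 6956 bases for Mcm2 and 3589 to 4666 bases for the other subunits. In CPM Mcm2 averaged 386 in the combination group and 235 with vehicle, above Mcm4 at 333 and 189. As shares of the 6 subunits together, Mcm2 made up 9.3% ± 0.568 in the combination group and 9.07% ± 0.875 with vehicle, and Mcm7 18.9% ± 0.919 and 19.6% ± 0.545 (SD, n = 3 each). The share of Mcm4 was 15.5% ± 0.249 in the combination group and 14.1% ± 0.109 with vehicle.

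Promoters of 35 of the 44 genes were found in the RefSeq table for GRCm38.p6 (the mm10 assembly), as windows from 250 bases before to 50 after the start. They were searched on both strands for 4 words that E2F factors are known to bind. The first was TTCCCGC and the second TTGGCGC. The third was TTCGCGC and the last TTGCCGC, and words that overlap in 1 site were counted each. At least 1 word was in 22 of the 35 (62.9%, 95% Wilson interval 46.3% to 76.8%), in 10.9% of all 27025 genes with a window, and in 17.9% of the 11578 tested genes with one. CCAAT was in 62.9% of the 35, 41.1% of all genes and 42.4% of the tested genes. The words TTTGAA or TTCGAA, known from genes of G2 and mitosis, were in 17.1%, 21.7% and 17.3% in the same order. The 43 E2F word matches centred near the start, with a median position of -29 and 30 of the 43 between 100 bases before and 50 after it. In the combination against vehicle comparison the 22 genes with a word had a median log2 change of 0.64 and 18 were called, and the 13 without had 0.66 and 13 were called. A match is a description of the letters and not a bound site. The 250 bases before the RefSeq start are shown for 4 licensing genes with a word. Ccne1, which had none and yet the largest change of the 44, is shown too. All are printed 5′ to 3′ on the gene's strand with E2F words in capitals. They lie at chr1:128359706-128359955 on the minus strand (Mcm6), chr8:75109259-75109508 on the plus strand (Mcm5), chr11:98907901-98908150 on the plus strand (Cdc6), chr4:108579204-108579453 on the plus strand (Orc1) and chr7:38107491-38107740 on the minus strand (Ccne1).
Mcm6: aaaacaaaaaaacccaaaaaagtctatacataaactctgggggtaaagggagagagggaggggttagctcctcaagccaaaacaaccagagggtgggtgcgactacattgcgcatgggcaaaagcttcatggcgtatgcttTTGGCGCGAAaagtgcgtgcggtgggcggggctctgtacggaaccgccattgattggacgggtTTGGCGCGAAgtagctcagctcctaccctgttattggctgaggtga
Mcm5: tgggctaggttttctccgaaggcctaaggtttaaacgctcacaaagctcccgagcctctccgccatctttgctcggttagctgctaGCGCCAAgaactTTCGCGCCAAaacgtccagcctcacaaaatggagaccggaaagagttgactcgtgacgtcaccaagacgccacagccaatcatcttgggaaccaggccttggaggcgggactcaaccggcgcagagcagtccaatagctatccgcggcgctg
Cdc6: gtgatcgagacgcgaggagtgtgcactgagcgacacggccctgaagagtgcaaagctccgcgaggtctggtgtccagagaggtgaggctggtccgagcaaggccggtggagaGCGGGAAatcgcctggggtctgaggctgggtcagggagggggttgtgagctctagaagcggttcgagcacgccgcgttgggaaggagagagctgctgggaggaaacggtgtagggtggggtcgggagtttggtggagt
Orc1: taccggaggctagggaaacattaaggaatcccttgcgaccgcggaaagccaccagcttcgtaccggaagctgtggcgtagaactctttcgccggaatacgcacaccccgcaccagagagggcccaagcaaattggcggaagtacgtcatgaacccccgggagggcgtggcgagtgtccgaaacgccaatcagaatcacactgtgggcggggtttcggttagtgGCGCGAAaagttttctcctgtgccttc
Ccne1: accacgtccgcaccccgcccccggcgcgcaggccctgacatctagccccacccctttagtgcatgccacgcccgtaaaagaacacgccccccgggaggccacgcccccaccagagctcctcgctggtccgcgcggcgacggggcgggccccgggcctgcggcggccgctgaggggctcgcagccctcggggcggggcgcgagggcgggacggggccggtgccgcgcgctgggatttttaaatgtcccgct
Mcm6 carries the same pair of overlapping words at 2 places, starting 109 and 46 bases before the start, and each run of capitals reads TTGGCGC forwards and TTCGCGC on the other strand. Mcm5 has 3 words, 2 of them overlapping, and Cdc6 and Orc1 have 1 each. The RefSeq start can differ from the gene's start in the count table. There Cdc6 begins at chr11:98907801, so its whole printed stretch, with its E2F word, lies inside the gene as counted. The Orc1 and Ccne1 stretches overlap their genes as counted in part.

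**Figure D4:**
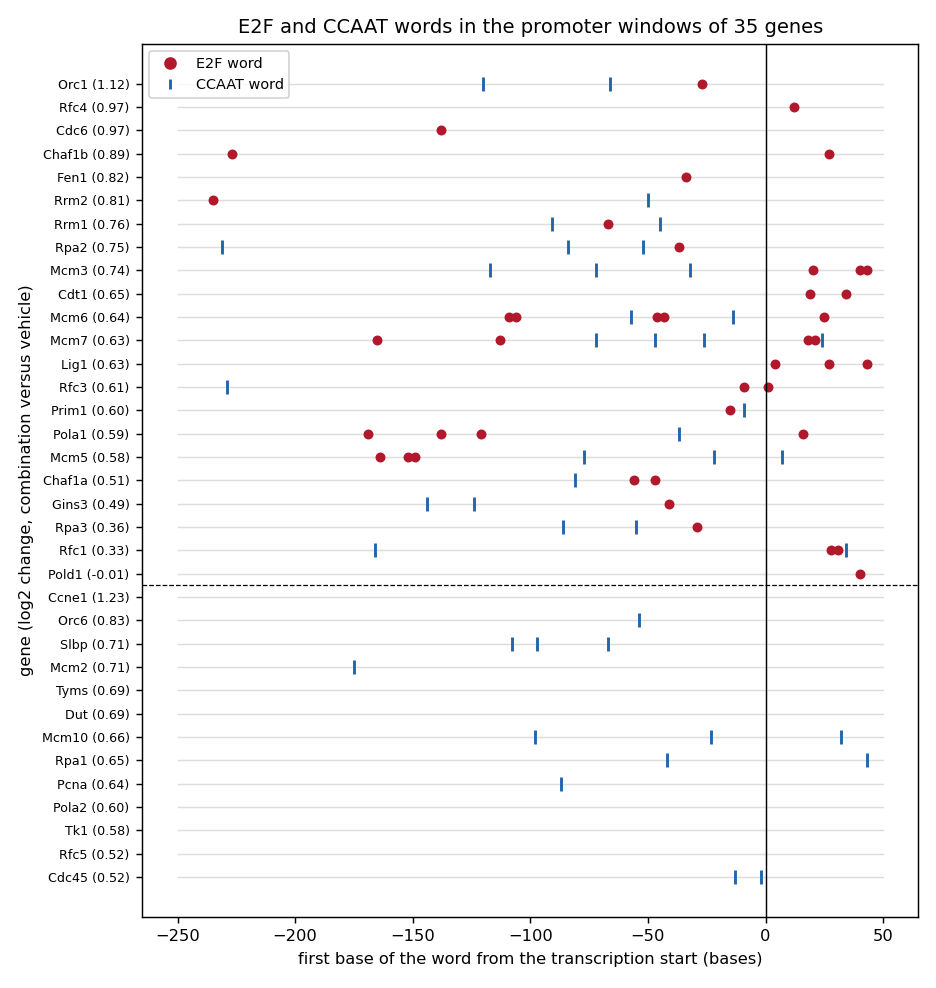
Position of each E2F word (circles) and CCAAT (ticks) in the promoter windows of 35 genes, as the distance of its first base from the start in bases, with each gene's log2 change beside its name. The 22 genes with an E2F word are above the dashed line and the 13 without below it, with changes of -0.01 to 1.12 above and 0.52 to 1.23 below.

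Of Cdc45 and the 4 GINS genes, which turn the loaded ring into a moving helicase, 4 of 5 were called higher in the combination group than with vehicle, with a median log2 change of 0.58. Gins2 was at 28.7, 30.4 and 30.7 CPM in combination libraries, 24.6, 24.3 and 22.1 CPM with PD-901, 22.7, 23.5 and 26.3 CPM with 5-azacitidine, and 16.1, 20.6 and 18.9 CPM with vehicle. All combination libraries were above all others, and the change was 1.62-fold (log2 0.69, SE 0.15, edgeR adjusted p = 0.00951). In 65.4% of its 50-base stretches Gins2 shares sequence with Gse1 on the opposite strand, so reads of the pair may be mixed. Cdc45 was at 120, 96.2 and 102 CPM in combination libraries, 91.4, 90.2 and 82.1 CPM with PD-901, 105, 93.6 and 105 CPM with 5-azacitidine, and 71.6, 78.8 and 71 CPM with vehicle. Its combination and 5-azacitidine levels overlapped, and all 9 treated libraries were above vehicle (combination against vehicle log2 0.52, SE 0.12, edgeR adjusted p = 0.0123). Gins3 was the member that missed: 30.5, 23.1 and 32.7 CPM in combination libraries, 20.1, 24.2 and 20.9 CPM with PD-901, 23.4, 19.7 and 22.2 CPM with 5-azacitidine, and 18.8, 23 and 19.7 CPM with vehicle. Its log2 change was 0.49 (95% interval 0.12 to 0.86, edgeR adjusted p = 0.0729). Gins1 averaged 41.6 ± 6.59 CPM in the combination group and 27.9 ± 1.53 CPM with vehicle (SD, n = 3 each; log2 0.58, edgeR adjusted p = 0.0301). Gins4 averaged 49.3 ± 5.68 CPM in the combination group, 46.1 ± 1.98 CPM with PD-901, 48.3 ± 10 CPM with 5-azacitidine and 31.5 ± 2.58 CPM with vehicle (SD, n = 3 each).

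Among polymerase and primase genes 5 of 6 were called higher in the combination group than with vehicle, with a median log2 change of 0.60, and the exception was Pold1. Pola2, the second subunit of polymerase alpha, was at 117, 116 and 141 CPM in combination libraries, 92.5, 100 and 95.1 CPM with PD-901, 99.6, 98.1 and 96.7 CPM with 5-azacitidine, and 74.6, 86.5 and 85.1 CPM with vehicle. The combination libraries stood above all others and the vehicle libraries below all others (combination against vehicle 1.52-fold, log2 0.60, SE 0.12, edgeR adjusted p = 0.00621). Prim2, the large primase subunit, was at 77.9, 55.5 and 80.7 CPM in combination libraries, 50.6, 56.2 and 46 CPM with PD-901, 61.2, 48.4 and 62.4 CPM with 5-azacitidine, and 42.2, 45.6 and 38 CPM with vehicle. Combination replicate 2 fell among the single-agent libraries, and the change against vehicle was 1.7-fold (log2 0.77, SE 0.16, edgeR adjusted p = 0.00787). Prim1 and Pola1, the catalytic subunits of primase and polymerase alpha, changed by log2 0.60 and 0.59.

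Pold1, the catalytic subunit of polymerase delta (chr7:44532746-44548849, mm10), was at 171, 159 and 180 CPM in combination libraries, 174, 189 and 194 CPM with PD-901, 161, 165 and 156 CPM with 5-azacitidine, and 173, 166 and 174 CPM with vehicle. The combination and vehicle libraries overlapped fully, and the log2 change was -0.01 (95% interval -0.24 to 0.22, edgeR adjusted p = 0.968). Pole, the catalytic subunit of polymerase epsilon, was at 85.1, 99 and 112 CPM in combination libraries, 55.3, 60.6 and 73.6 CPM with PD-901, 80.6, 60.6 and 39.9 CPM with 5-azacitidine, and 56.3, 70.9 and 60.9 CPM with vehicle. It was highest in the combination libraries, with single agents and vehicle overlapping (combination against vehicle log2 0.66, SE 0.21, edgeR adjusted p = 0.0469). The ratio of Pole to Pold1, formed after these values were seen, was 0.499, 0.624 and 0.624 in combination libraries, 0.318, 0.32 and 0.379 with PD-901, 0.5, 0.368 and 0.255 with 5-azacitidine, and 0.325, 0.426 and 0.35 with vehicle. An exact permutation test (two-sided) of this ratio gave p = 0.1 for the combination against vehicle, the smallest that 3 mice against 3 allow. Because the pair was chosen on its values, the test cannot support the difference. The call for Pole is fragile: it held in 4 of the 12 fits that leave out 1 library, with adjusted p up to 0.161.

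The clamp and its loader were the most uneven class, with 4 of 6 genes called higher in the combination group than with vehicle and log2 changes of 0.13 to 0.97. Rfc4 (chr16:23113943-23127737, mm10), a small subunit of the loader, was at 75.6, 47.8 and 66 CPM in combination libraries, 54, 51.2 and 40.4 CPM with PD-901, 41.8, 53.6 and 68.2 CPM with 5-azacitidine, and 32.5, 35.6 and 28.6 CPM with vehicle. The 3 treated groups overlapped one another and all lay above vehicle, and the combination change was 1.96-fold (log2 0.97, SE 0.20, edgeR adjusted p = 0.00711). Rfc5, another small subunit, was at 111, 92.6 and 101 CPM in combination libraries, 82.7, 85.8 and 76.3 CPM with PD-901, 91.7, 87 and 93.4 CPM with 5-azacitidine, and 69.6, 78.2 and 65.2 CPM with vehicle. Its combination libraries were above all PD-901 and vehicle libraries (combination against vehicle log2 0.52, SE 0.12, edgeR adjusted p = 0.0121).

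The loader's large subunit gene Rfc1 was at 116, 140 and 148 CPM in combination libraries, 108, 116 and 123 CPM with PD-901, 137, 107 and 115 CPM with 5-azacitidine, and 106, 116 and 99.1 CPM with vehicle. The groups touched at 116 CPM, and the log2 change of 0.33 missed the threshold (95% interval 0.04 to 0.62, edgeR adjusted p = 0.122). Rfc2 (chr5:134581366-134601805, mm10) was at 185, 147 and 160 CPM in combination libraries, 185, 169 and 160 CPM with PD-901, 170, 153 and 176 CPM with 5-azacitidine, and 153, 157 and 140 CPM with vehicle. Combination replicate 2 lay inside the vehicle range (combination against vehicle log2 0.13, 95% interval -0.14 to 0.40, edgeR adjusted p = 0.571). Rfc2 shares 16.0% of its 50-base stretches with other genes, among them Lat2 on the opposite strand, so its count may be mixed. Pcna, the clamp itself, was at 581, 398 and 510 CPM in combination libraries against 295, 346 and 316 CPM with vehicle (log2 0.64, SE 0.16, edgeR adjusted p = 0.0191). Rfc3 averaged 46 ± 5.48 CPM in the combination group and 30.1 ± 4.45 CPM with vehicle (SD, n = 3 each; log2 0.61, edgeR adjusted p = 0.0278). A Pcna pseudogene copy, Pcna-ps2, shares 19.1% of its 50-base stretches.

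RFC is built from 1 copy each of 5 subunits. The shares given next depend on merged exon lengths, which ran from 1533 bases for Rfc4 to 6303 bases for Rfc2. In CPM Rfc4 was not the highest, with a mean of 63.1 in the combination group against 164 for Rfc2 and 135 for Rfc1. Per kilobase, Rfc4 made up 32.9% ± 3.86 of the 5 in the combination group, 29.8% ± 2.83 with PD-901, 31.4% ± 5.11 with 5-azacitidine and 24.4% ± 0.496 with vehicle, and Rfc2 made up 21% ± 0.967, 25.7% ± 0.633, 23.5% ± 1.73 and 27.7% ± 0.824 in the same order (SD, n = 3 each). The ratio of Rfc4 to Rfc2 in CPM, also formed after the values were seen, was 0.409, 0.325 and 0.411 in combination libraries, 0.291, 0.302 and 0.252 with PD-901, 0.247, 0.35 and 0.388 with 5-azacitidine, and 0.212, 0.226 and 0.205 with vehicle. Every treated library was above every vehicle library in this ratio, and the same exact permutation test gave p = 0.1 for each treatment against vehicle and p = 0.5 for the combination against 5-azacitidine.

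**Figure D5:**
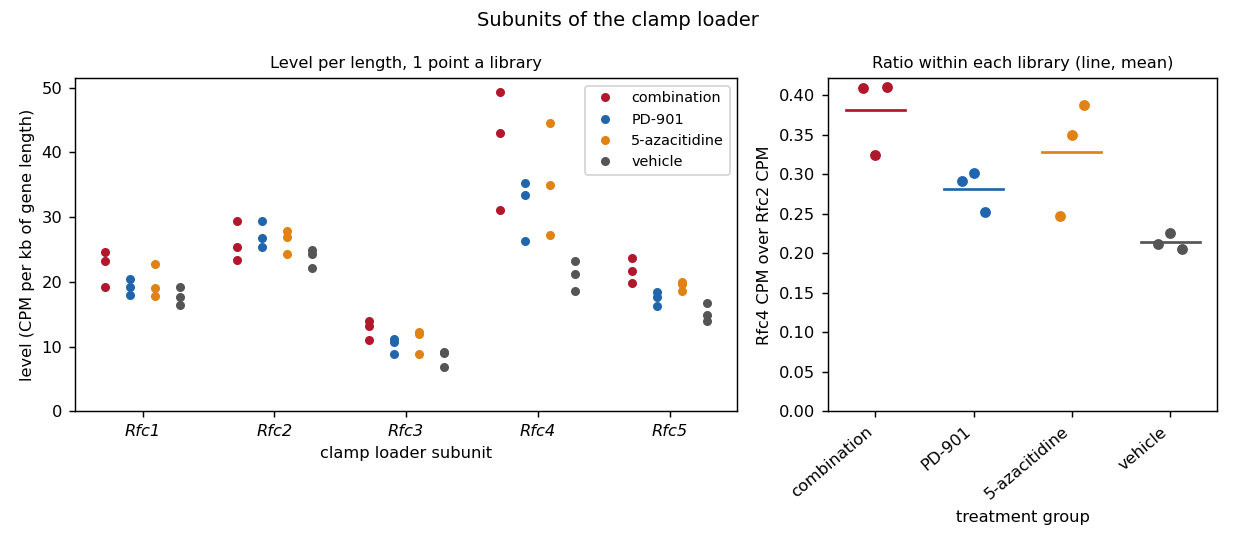
Left, level of the 5 RFC genes in CPM per kilobase, 1 point a library, coloured by treatment group. Right, the ratio of Rfc4 to Rfc2 in each library with group means, where all treated libraries lie above the vehicle libraries (0.205 to 0.226).

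Of the 3 RPA genes, whose products coat single-stranded DNA, Rpa1 and Rpa2 were called higher in the combination group and Rpa3 was not. Rpa2 was at 121, 96.1 and 118 CPM in combination libraries, 89.3, 86.9 and 77.8 CPM with PD-901, 69.6, 91.6 and 101 CPM with 5-azacitidine, and 71.4, 68.7 and 59.3 CPM with vehicle. Combination levels overlapped those with 5-azacitidine and were above the rest (against vehicle log2 0.75, SE 0.15, edgeR adjusted p = 0.00642). Rpa1, the largest subunit, was at 261, 213 and 274 CPM in combination libraries, 192, 189 and 172 CPM with PD-901, 169, 207 and 211 CPM with 5-azacitidine, and 146, 168 and 163 CPM with vehicle. All combination libraries were above all others, and all vehicle libraries were below all others (combination against vehicle log2 0.65, SE 0.13, edgeR adjusted p = 0.00718). Rpa3, the smallest subunit, was at 27, 20.9 and 23.9 CPM in combination libraries, 24.4, 27 and 17.6 CPM with PD-901, 18.2, 24.9 and 27.4 CPM with 5-azacitidine, and 20.8, 18.4 and 16.6 CPM with vehicle. The treated groups overlapped, and the log2 change of 0.36 missed the threshold (95% interval -0.07 to 0.79, edgeR adjusted p = 0.277).

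For joining of lagging strand fragments, Lig1 (DNA ligase 1) was at 321, 252 and 347 CPM in combination libraries, 246, 244 and 217 CPM with PD-901, 200, 214 and 238 CPM with 5-azacitidine, and 190, 222 and 183 CPM with vehicle. All combination libraries were above all others, and single-agent libraries overlapped vehicle (combination against vehicle log2 0.63, SE 0.14, edgeR adjusted p = 0.0101). Fen1, the flap nuclease, was counted at only 13.2, 11.9 and 18.3 CPM in combination libraries, 9.88, 11.2 and 13.2 CPM with PD-901, 14.9, 9.78 and 9.17 CPM with 5-azacitidine, and 6.38, 10 and 8.14 CPM with vehicle. Its log2 change of 0.82 only just passed (95% interval 0.27 to 1.38, edgeR adjusted p = 0.0489), and it was called in 3 of the 12 fits that leave out 1 library. Since 76.7% of its 50-base stretches occur in Gm10143 or Tmem258 on the opposite strand, the Fen1 count is uncertain.

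The nucleotide supply genes were all called, 5 of 5 higher in the combination group than with vehicle, with a median log2 change of 0.69. In the 12 fits that leave out 1 library Tk1 was called in 8 and Dut in 10, and Rrm1, Rrm2 and Tyms in all 12. Rrm2, the subunit of ribonucleotide reductase made in S phase, was at 544, 453 and 539 CPM in combination libraries, 373, 382 and 352 CPM with PD-901, 418, 390 and 463 CPM with 5-azacitidine, and 303, 323 and 248 CPM with vehicle. Combination and 5-azacitidine levels overlapped, and all 9 treated libraries were above vehicle (combination against vehicle 1.76-fold, log2 0.81, SE 0.14, edgeR adjusted p = 0.0033). Tyms, thymidylate synthase, was at 98.2, 90.1 and 105 CPM in combination libraries, 66.1, 79.5 and 77.1 CPM with PD-901, 85.9, 80.7 and 86.9 CPM with 5-azacitidine, and 56.7, 62.7 and 62.8 CPM with vehicle. The combination libraries were the highest, the 5-azacitidine libraries came next without overlapping PD-901, and vehicle was lowest (combination against vehicle log2 0.69, SE 0.12, edgeR adjusted p = 0.00372). Rrm1, the large subunit of ribonucleotide reductase, averaged 625 ± 101 CPM in the combination group and 370 ± 37.8 CPM with vehicle (SD, n = 3 each; log2 0.76, edgeR adjusted p = 0.00504). Tk1, thymidine kinase, averaged 178 ± 34.1 CPM in the combination group, 117 ± 7.1 CPM with PD-901, 126 ± 9.6 CPM with 5-azacitidine and 119 ± 20.2 CPM with vehicle (SD, n = 3 each). Dut, which removes dUTP, averaged 190 ± 26.7, 165 ± 31, 188 ± 28 and 118 ± 13.7 CPM in the same order.

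Chromatin assembly factor 1 places new histones behind the fork. Its subunit gene Chaf1b (chr16:93883901-93906115, mm10) was at 85.2, 65.9 and 89.4 CPM in combination libraries, 50.8, 58.1 and 48.2 CPM with PD-901, 44.2, 46.8 and 56 CPM with 5-azacitidine, and 45.6, 39.4 and 44.9 CPM with vehicle. The combination libraries stood above all others, the PD-901 libraries were above vehicle, and the 5-azacitidine libraries overlapped it (combination against vehicle 1.85-fold, log2 0.89, SE 0.15, edgeR adjusted p = 0.00333). Slbp, which binds the stem loop of histone mRNAs, was at 319, 206 and 282 CPM in combination libraries, 228, 210 and 203 CPM with PD-901, 207, 231 and 275 CPM with 5-azacitidine, and 169, 187 and 136 CPM with vehicle. All treated libraries were above vehicle and overlapped one another (combination against vehicle log2 0.71, SE 0.17, edgeR adjusted p = 0.0131). Chaf1a, the large subunit, changed by log2 0.51, but 49.7% of its 50-base stretches are shared with other genes, chiefly Ubxn6 on the opposite strand.

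The E cyclins drive CDK2 into S phase, and Ccne1 had the largest change of the 44 genes. Ccne1 (chr7:38097984-38107534, mm10) was at 145, 94.2 and 141 CPM in combination libraries, 96.1, 89.2 and 68.3 CPM with PD-901, 80.4, 84.1 and 89.2 CPM with 5-azacitidine, and 46.7, 65.8 and 49.6 CPM with vehicle. All treated libraries were above vehicle, and combination replicate 2 lay within the PD-901 range (combination against vehicle 2.34-fold, log2 1.23, SE 0.18, edgeR adjusted p = 0.0029). Ccne2 was at 80, 65.8 and 89 CPM in combination libraries, 41.7, 53.4 and 53.3 CPM with PD-901, 62.6, 59.2 and 63.9 CPM with 5-azacitidine, and 41.1, 44.8 and 32.8 CPM with vehicle. Here the order was combination, then 5-azacitidine, with PD-901 overlapping vehicle (combination against vehicle 1.98-fold, log2 0.98, SE 0.16, edgeR adjusted p = 0.00318). In 14.4% of its 50-base stretches Ccne2 shares sequence with Ints8 on the opposite strand. Tipin, a fork protection gene, averaged 111 ± 25.2 CPM in the combination group and 69.1 ± 5.89 CPM with vehicle (SD, n = 3 each; log2 0.68, edgeR adjusted p = 0.0333).

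With PD-901 alone 0 of 44 genes were called against vehicle in either direction, where 0% of all tested genes were called higher. By an unadjusted p under 0.05 it was 12 of 44 (4.88% of all tested genes), and 25 of 44 had all PD-901 libraries above all vehicle libraries (6.83% of all tested genes). The median log2 change was 0.26, with 43 of 44 positive, and the largest changes were Ccne1 at 0.64 (95% interval 0.26 to 1.03) and Rfc4 at 0.59 (0.17 to 1.01). With 5-azacitidine alone 0 of 44 were called against vehicle, where 0.00572% of all tested genes were called higher, and 27 of 44 had an unadjusted p under 0.05 (15.3% of all tested genes). DESeq2 called 12 of 44 higher in that comparison and 1.67% of all tested genes. All 5-azacitidine libraries were above all vehicle libraries in 28 of 44 genes (10.8% of all tested genes), and the median log2 change was 0.36. The largest were Rfc4 at 0.76 (95% interval 0.34 to 1.18), Dut at 0.67 (0.32 to 1.03) and Ccne2 at 0.65 (0.31 to 0.98). Erythroid markers were higher here too: their sum averaged 5020 CPM with PD-901, 4480 CPM with 5-azacitidine and 2610 CPM with vehicle. Median log2 changes of the 17 erythroid genes against vehicle were 0.68 and 0.75, with 0 called in either comparison. The part of these markers in the single-agent changes was not tested. All 3 treatments share the 3 vehicle libraries, so their changes are not independent of one another.

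Set against PD-901 alone, 11 of 44 genes were higher in the combination group and 0 lower, where 1.69% of all tested genes were called higher and 5.12% lower. The called genes were Mcm3, Mcm4, Mcm6, Cdc6, Pola1, Prim1, Rrm1, Rrm2, Tk1, Chaf1b and Ccne2, with log2 changes of 0.45 to 0.66 (edgeR's quasi-likelihood test, adjusted p of 0.0148 to 0.0473). In 27 of the 44, called or not, all combination libraries were above all PD-901 libraries (12.7% of all tested genes). The count depended on single libraries: it was 0 without PD-901 replicate 1, without combination replicate 1 or without combination replicate 3, 3 without PD-901 replicate 2, 1 without PD-901 replicate 3, 6 without vehicle replicate 2, 7 without 5-azacitidine replicate 2, and 21 without combination replicate 2. The median log2 change stayed between 0.35 and 0.51 in those fits. The share of all tested genes called in each fit is not given, so a change in this count cannot be set against all genes. Against 5-azacitidine alone 1 of 44 genes was higher in the combination group, where 0.252% of all tested genes were called higher. All combination libraries were above all 5-azacitidine libraries in 17 of the 44 (9.1% of all tested genes). The called gene was Chaf1b (log2 0.71, 95% interval 0.39 to 1.03, edgeR adjusted p = 0.0357), and the median over the 44 was 0.32. The count was 0 without vehicle replicate 2, PD-901 replicate 2, 5-azacitidine replicates 2 or 3 or combination replicates 1 or 3, and 7 without combination replicate 2. Again no share over all tested genes stands beside these counts.

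Between the single agents, 0 of 44 genes differed with 5-azacitidine against PD-901 (edgeR's quasi-likelihood test; 0 with an unadjusted p under 0.05, and 0% of all tested genes called higher). All 5-azacitidine libraries were above all PD-901 libraries in 8 of the 44 (6.55% of all tested genes). The median log2 change was 0.07 and the largest was 0.32, for Ccne2 (95% interval -0.01 to 0.65). The interaction, which asks whether the combination departs from the sum of both single-agent log2 changes, called 0 of 44 genes and 0% of all tested genes as higher. Its median was 0.03. An unadjusted p under 0.05 was found for 3 of 44 genes, a smaller share than the 10.7% of all tested genes that had one. They were Pole at 0.70 (SE 0.29), Tk1 at 0.52 (SE 0.22) and Gins4 at -0.52 (SE 0.22), all on the log2 scale. With 3 mice a group, a departure as small as these errors was not detectable.

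In 16 of the 44 genes all 3 combination libraries were above all 9 other libraries, as in 3.54% of all tested genes: Mcm3, Mcm4, Mcm6, Mcm10, Cdt1, Orc1, Gins2, Rpa1, Pola2, Pole, Prim1, Tyms, Tk1, Chaf1b, Lig1 and Ccne2. Combination replicate 2 was above all vehicle libraries in 42 of 44, the exceptions being Rfc2 and Pold1. That pattern held in 31.3% of all tested genes. Its erythroid sum of 3300 CPM was the lowest of the combination libraries but also above all vehicle libraries (1960 to 3160 CPM).

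Of 53 further genes of replication and its E2F program, 52 were tested and 27 were higher and 0 lower in the combination group than with vehicle, with a median log2 change of 0.45. Among those with the lowest p were Atad5, which unloads PCNA (log2 0.99), Recql4, a helicase of origin firing (0.84), Dtymk, thymidylate kinase (0.67), Dtl, which directs CDT1 for destruction (0.75), and Wdhd1, which tethers polymerase alpha to the helicase (0.74). With either agent alone 0 of the 52 were called, 10 were higher in the combination group than with PD-901, and 3 were higher than with 5-azacitidine. Over all tested genes the combination group had 5.78% called higher against vehicle, 1.69% against PD-901 and 0.252% against 5-azacitidine. Of 19 genes of G2 and mitosis tested, 9 rose in the combination group and 0 fell with a median log2 change of 0.48. Ccnb1, the mitotic cyclin, averaged 217 ± 16.8 CPM in the combination group and 126 ± 16.2 CPM with vehicle (SD, n = 3 each).

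The G1 control genes moved both ways. Of 18 tested, 3 were higher in the combination group than with vehicle (E2f4 log2 0.70, Cdk4 0.62, Cdk6 0.64) and 1 was lower. The lower one was Ccnd1, cyclin D1, a gene induced through the MEK and ERK pathway, at 11.9 ± 4.88 CPM in the combination group and 50.6 ± 30.2 CPM with vehicle (SD, n = 3 each; log2 -2.08, edgeR adjusted p = 0.0161). With PD-901 alone Ccnd1 averaged 41.6 CPM and was not called. Other marker lists in the combination against vehicle comparison were 5 of 8 primary granule genes higher, 9 of 12 monocyte and macrophage genes lower, 11 of 13 B cell precursor genes lower, 2 of 9 stem and progenitor genes lower and 2 of 9 T and NK cell genes lower. Over all tested genes 5.78% were called higher and 7.97% lower in that comparison. The part of these lists in the replication gene result was not tested.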

How the data were processed

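Total RNA from bone marrow cells of 12 mice went through a low-input library kit and paired-end HiSeq4000 sequencing, per the labels' protocols. The authors' deposited table holds raw counts per gene with no normalization, 1 column for each mouse. Per the submitters' processing notes, the tools were STAR 2.7.2a, bcl2fastq, and featureCounts of Subread 1.6.5, and the build was mm10. Which annotation they counted on, and whether by strand, no source used here says. The identifiers, starts and ends of all 44 genes are those of GENCODE M21. Reads of overlapping or near-identical genes could be mixed without strand, which was checked by 50-base stretches shared between transcripts (8 of the 44 genes shared over 10%).

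The counts went into edgeR 4.0.16 under R 4.3.3. Its filterByExpr step (minimum count 10, minimum total 15) left 17475 genes, and libraries were scaled by TMM. A robust quasi-likelihood model that gives each treatment its own mean was fitted to all 12 libraries (8 residual degrees of freedom, common biological coefficient of variation 0.328) and tested for 7 contrasts, two-sided. Within each contrast p values were adjusted by Benjamini-Hochberg over the 17475 genes, and a gene was called at an adjusted p under 0.05. The script was tested on simulated data. No 2 libraries of a group were copies: their counts gave a chi-square of 18.1 to 61.4 per degree of freedom. The labels call them biological replicates, so p values measure the spread between mice. Depth limits genes of few counts such as Fen1, and counts may include PCR copies.

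The 44 genes, the further gene lists and the marker lists were chosen with earlier results of these data known. Values in every library are given for the 2 genes of each role with the lowest p for the combination against vehicle and for every gene not called there, and up to 6 genes of each further list are named by lowest p, with 1 result not reported here. Mcm6, Pole, Pcna and the ratios were chosen after their values were seen. Alternatives were other scaling (total counts, DESeq2 size factors), other tests (DESeq2 1.42.0, limma-voom with limma 3.58.1), other filters, fits of only the 2 groups compared, leaving out each library, and 4 added after seeing the data: leaving out the 4 libraries lowest in Lyz2, and terms for Xist, the erythroid sum and the mature neutrophil sum. Promoter windows are RefSeq's for GRCm38.p6, and 9 of the 44 genes had no entry in the table.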

Additional observations from a re-analysis of the deposited data

How the results depend on the processing

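Combination against vehicle called 39 of the 44 genes, and 37 to 40 under other scaling, tests and filters. It called 23 to 39 with 1 library left out, 14 without the 4 libraries lowest in Lyz2 (1 library against 1), 0 with the Xist term, 0 with the erythroid covariate and 1 with the mature neutrophil covariate. 5-Azacitidine against vehicle called 0, but 8 with no low-count filter and 12 by DESeq2, which called 1.67% of all tested genes higher. Combination against PD-901 called 11, but 23 with total counts only, 23 by DESeq2, 6 with only the 2 groups compared, 0 to 21 with 1 library left out, 3 without the Lyz2-low libraries, 0 with the Xist term, 3 with the erythroid covariate and 0 with the mature neutrophil covariate. Combination against 5-azacitidine called 1, but 2 with total counts only, 3 with no low-count filter, 6 by DESeq2, 0 with only the 2 groups compared, 0 to 7 with 1 library left out, and 0 without the Lyz2-low libraries or with any of the 3 covariates. PD-901 against vehicle, 5-azacitidine against PD-901 and the interaction called 0 of the 44 genes under every alternative run. No gene of the 44 was called lower in any of them. Most of these counts stand without the share over all tested genes, so a change in a count cannot be set against all genes here.

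Signs reversed for 3 uncalled genes in the combination against vehicle comparison. Rfc2 had -0.04 with the Xist term and -0.09 with the erythroid covariate, and Rpa3 had -0.0024 with the erythroid covariate. Pold1 had 0.08 with total counts only, 0.05 without the Lyz2-low libraries, 0.08 with the Xist term and 0.01 in a fit with 1 library left out, with -0.06 to 0.03 over all 12 such fits. Total counts only moved the median of all genes to 0.09 in that comparison and to 0.11 against PD-901 and 0.13 against 5-azacitidine. An E2F word was in 45.7% of the promoters when only the bases before the start were searched, against 9.01% of all genes. The causes of these differences were not tested. Without the Lyz2-low libraries the combination and vehicle groups hold 1 library each, which was assumed to vary like the other groups. No paired analysis was possible because the labels carry no replicate numbers that could pair mice, and those used here only follow accession order.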
